A study of Homo sapiens with 6 samples.

Results

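The genes described here are 10 genes of the Hippo pathway and its YAP and TEAD output: YAP1, WWTR1, TEAD1, AMOTL1, AMOTL2, CCN1, CCN2, LATS2, CRIM1 and PTPN14. They were chosen by gene symbol and are 10 of 25827 features in the deposited expression table. All 10 passed the filter on low values, which left 21773 features for testing. The libraries are PRO-seq libraries, which read the 3′ ends of RNA still being made by engaged RNA polymerases and so measure transcription rather than the amount of finished RNA.

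The cells were SBC-3, an established human small cell lung cancer line, transfected with siRNA at 10 nM and harvested 72 h later. In the 2 libraries called siCtrl the cells received a control siRNA and the genotype is given as WT. In 2 libraries each, called siSFPQ-2 and siSFPQ-3, they received 1 of 2 different siRNAs against SFPQ, an RNA- and DNA-binding nuclear protein, and the genotype is given as SFPQ knockdown. All 6 libraries thus come from transfected cells of the same line, and the study asked how loss of SFPQ affects nascent transcription. Nothing in the labels says that replicates were separate cultures, so the p-values measure only the spread between these libraries, which may be technical.

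The Hippo pathway is a kinase cascade that restrains growth. The kinases STK3 and STK4, with their partner SAV1, activate LATS1 and LATS2, which phosphorylate the coactivators YAP (YAP1) and TAZ (WWTR1) and keep them out of the nucleus. When the kinases are inactive, YAP and TAZ enter the nucleus, bind the DNA-binding TEAD factors and drive genes such as CCN1 and CCN2. Several target genes, among them LATS2, AMOTL2 and PTPN14, code for proteins that restrain YAP and so close a feedback loop.

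The promoters of 3 of the genes are shown because the 6-base sequence that TEAD factors recognise occurs in them and because the genes differed in what happened to their transcription: CCN2 did not pass the test, while YAP1 and AMOTL2 rose. Each is a 300-base window from RefSeq (GRCh38.p14) on the gene's own strand, 5′ to 3′, which runs from 250 bases before the annotated start to 50 bases after it. Capitals mark matches to GGAATG or its reverse complement CATTCC, and in CCN2 also a match to TATAAA.
CCN2, chr6:131951323-131951622, minus strand: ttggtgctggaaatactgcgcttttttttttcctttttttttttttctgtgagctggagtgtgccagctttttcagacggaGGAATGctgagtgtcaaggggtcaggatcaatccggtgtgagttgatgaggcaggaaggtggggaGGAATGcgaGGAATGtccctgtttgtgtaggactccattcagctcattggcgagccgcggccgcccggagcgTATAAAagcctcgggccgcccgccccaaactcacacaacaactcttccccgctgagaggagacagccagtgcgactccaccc
YAP1, chr11:102110197-102110496, plus strand: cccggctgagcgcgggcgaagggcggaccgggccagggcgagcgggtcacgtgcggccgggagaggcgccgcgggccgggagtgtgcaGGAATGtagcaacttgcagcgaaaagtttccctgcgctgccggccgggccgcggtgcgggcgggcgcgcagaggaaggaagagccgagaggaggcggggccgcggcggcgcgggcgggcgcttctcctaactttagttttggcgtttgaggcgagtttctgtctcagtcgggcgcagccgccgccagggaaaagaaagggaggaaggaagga
AMOTL2, chr3:134374398-134374697, minus strand: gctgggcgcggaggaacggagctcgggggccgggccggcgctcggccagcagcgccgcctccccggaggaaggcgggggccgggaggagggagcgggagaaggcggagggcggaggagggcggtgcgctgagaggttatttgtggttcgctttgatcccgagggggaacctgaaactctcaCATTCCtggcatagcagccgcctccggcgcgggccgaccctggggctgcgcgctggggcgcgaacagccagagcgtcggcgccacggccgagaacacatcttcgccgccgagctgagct

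The CCN2 window holds 3 TEAD matches, which begin at -169, -104 and -95 relative to the start, and a TATAAA that begins at -32. The YAP1 window holds 1 TEAD match at -162, and this AMOTL2 window, the second of 2 annotated for that gene, holds 1 at -69. Among the other windows, PTPN14 (chr1:214551553-214551852) has 1 match at -200 and LATS2 (chr13:21061537-21061836) has 1 at 9. No match lies in the first AMOTL2 window, in either WWTR1 window or in the AMOTL1 window. The WWTR1 windows (chr3:149703224-149703523 and chr3:149657976-149658275) and the AMOTL1 window (chr11:94768106-94768405) lie within the genes' annotated spans. They are not at the outer start of the span, which was not searched for these genes. The printed AMOTL2 window also lies within its gene's span. In all, 7 of the 10 genes matched promoter entries, with 9 windows, and 5 of these windows hold a TEAD match. Of all 35116 promoter windows, 14.0% hold GGAATG on either strand. The AP-1 motif TGANTCA, searched on both strands, lies in 7.71% of all windows and in none of these 9, and TATAAA or its reverse complement TTTATA lies in 11.5% of all windows. A match shows only that these letters are present. Promoter entries for CCN1, TEAD1 and CRIM1 were not used here.

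Each library held between 12072813 and 18475158 reads, recovered from the deposited normalized values. Replicate libraries of a group differed by more than counting noise, the chi-square over its degrees of freedom being 11.1 (siCtrl), 11.7 (siSFPQ-2) and 24.3 (siSFPQ-3). Nascent reads of SFPQ itself were 2294 and 2435 in siCtrl, 1825 and 1972 in siSFPQ-2, and 1922 and 2466 in siSFPQ-3, and did not pass the test (limma, log2 fold change -0.22, adjusted p = 0.137). Because an siRNA acts on finished mRNA, these reads are no check of the knockdown. Of 12 neuroendocrine markers, which mark the classic form of small cell lung cancer, 6 were in the table. SYP had 283 and 226 normalized reads in siCtrl, ENO2 233 and 217, and DLL3 124 and 130, or 20.6, 24.7 and 13.3 per kb of annotated span. NEUROD1 had 27.1 and 31.0 reads (2.38 per kb) and CHGA had 3.19 and 4.43 (0.302 per kb). In such bulk libraries, fewer cells that transcribe a gene and less transcription per cell cannot be told apart.

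With SFPQ knocked down, transcription of 8 of the 10 genes rose: the coactivator genes YAP1 and WWTR1, the transcription factor gene TEAD1, and AMOTL1, AMOTL2, LATS2, CRIM1 and PTPN14. The increases in mean normalized reads ran from 1.35-fold for AMOTL2 to 2.57-fold for CRIM1. CCN1 and CCN2, the 2 targets most used as readouts of YAP activity, did not pass the test. In each of the 8 genes that rose, all 4 siSFPQ libraries lay above both siCtrl libraries. The test was limma on log2(normalized reads + 1) with both siRNAs against siCtrl, at an adjusted p under 0.05, and a fold change is on that scale. It called 24.8% of all 21773 tested features higher and 23.2% lower, and in 30.3% of features all 4 siSFPQ libraries lay above both siCtrl libraries. The median log2 fold change of the 10 genes was 0.65, beside -0.02 over all tested features. Scaling the libraries by the median of ratios over tested features left both medians as they were. A rise is thus relative to the typical feature, and a change of all transcription together was not tested.

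**Figure D1:**
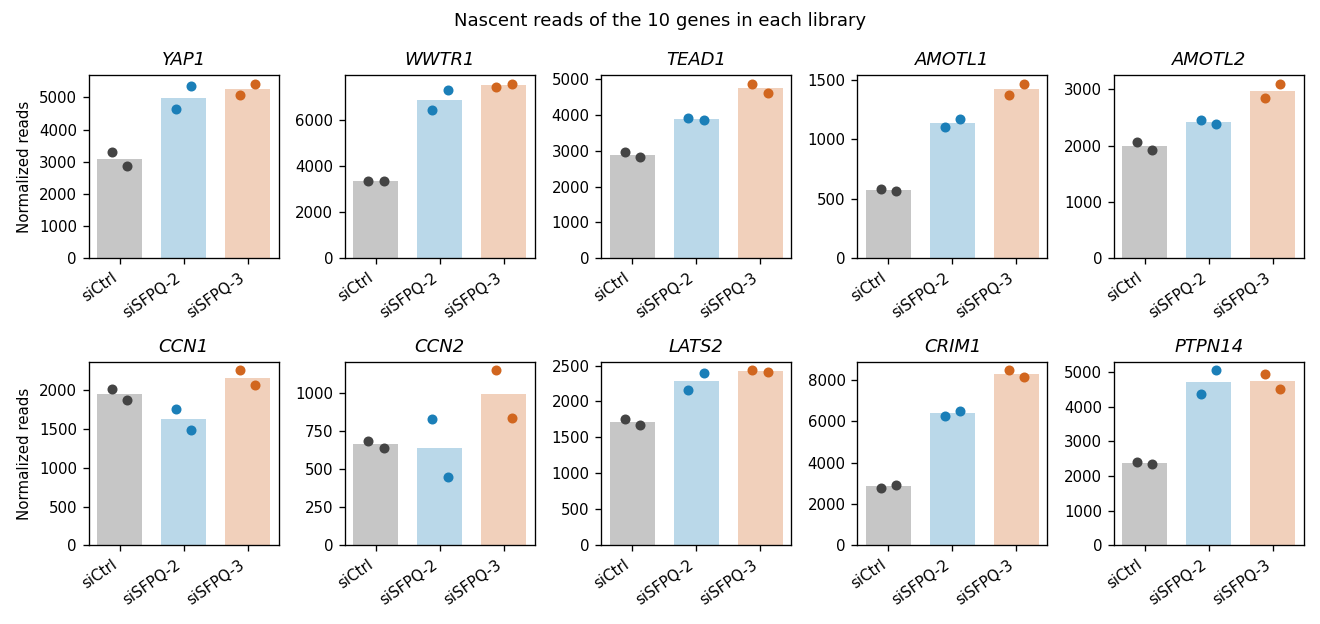
Normalized PRO-seq reads (y axis, linear, from 0) of the 10 genes in each library, with siCtrl in grey, siSFPQ-2 in blue and siSFPQ-3 in orange. Points are single libraries and bars are the means of 2. YAP1, WWTR1, TEAD1, AMOTL1, AMOTL2, LATS2, CRIM1 and PTPN14 lie higher in all 4 siSFPQ libraries than in either siCtrl library, while the groups overlap for CCN1 and CCN2.

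The coactivators come first. YAP1 (chr11:102110447-102233424) had 3312 and 2856 normalized reads in siCtrl, 4634 and 5340 in siSFPQ-2, and 5078 and 5431 in siSFPQ-3. The lowest siSFPQ library lay well above the highest siCtrl library, and both siRNAs reached a similar level. The log2 fold change was 0.73 (SE 0.11, limma adjusted p = 4.36e-04), or 1.66-fold between means. WWTR1 (chr3:149517235-149724788), which codes for TAZ, the paralog of YAP, had 3343 and 3359 reads in siCtrl, 6401 and 7260 in siSFPQ-2, and 7402 and 7554 in siSFPQ-3. The siCtrl libraries nearly coincided and every siSFPQ library was far above them (log2 fold change 1.09, SE 0.11, limma adjusted p = 2.39e-05).

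TEAD1 (chr11:12674421-12944737), one of the TEAD factors that carry YAP and TAZ to DNA, had 2950 and 2817 reads in siCtrl, 3916 and 3841 in siSFPQ-2, and 4866 and 4606 in siSFPQ-3. The 3 groups did not overlap, and siSFPQ-3 was the highest. The log2 fold change was 0.57 (SE 0.10, limma adjusted p = 7.54e-04).

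Of the 10 genes, AMOTL1, AMOTL2, LATS2 and PTPN14 code for proteins that bind or phosphorylate YAP and hold it back. AMOTL1 (chr11:94706460-94876748), an angiomotin family scaffold that binds YAP in the cytoplasm and at junctions, had 581 and 567 reads in siCtrl, 1103 and 1168 in siSFPQ-2, and 1370 and 1467 in siSFPQ-3. It thus ran in the same order of groups as TEAD1, with no overlap, and its log2 fold change was 1.14 (SE 0.09, limma adjusted p = 4.92e-06). Its relative AMOTL2 (chr3:134355345-134375417), itself a YAP target, had 2063 and 1928 reads in siCtrl, 2446 and 2387 in siSFPQ-2, and 2842 and 3101 in siSFPQ-3. This was the smallest of the 8 increases, at a log2 value of 0.43 (SE 0.09, limma adjusted p = 0.00368), and the call was lost without siCtrl replicate 2 (0.38, adjusted p = 0.0592).

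LATS2 (chr13:20973036-21061586), the kinase that phosphorylates YAP and TAZ, had 1756 and 1673 reads in siCtrl, 2165 and 2402 in siSFPQ-2, and 2433 and 2404 in siSFPQ-3. All siSFPQ libraries were higher and the siRNAs lay close together, the log2 fold change being 0.45 (SE 0.09, limma adjusted p = 0.00242). PTPN14 (chr1:214348700-214551602), a non-receptor tyrosine phosphatase that binds YAP and restrains it, had 2418 and 2336 reads in siCtrl, 4379 and 5052 in siSFPQ-2, and 4953 and 4519 in siSFPQ-3. Its log2 fold change was 0.99 (SE 0.10, limma adjusted p = 3.96e-05), with the 2 siRNAs intermingled.

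The remaining 3 genes are targets that code for secreted or membrane-bound proteins. CRIM1 (chr2:36355778-36551135), a transmembrane protein that binds growth factors of the BMP family, had 2780 and 2930 reads in siCtrl, 6264 and 6512 in siSFPQ-2, and 8458 and 8137 in siSFPQ-3. It had the largest change of the 10, 1.35 on the log2 scale (SE 0.10, limma adjusted p = 3.87e-06). CCN1 (chr1:85580761-85583950), a secreted matrix-associated protein formerly called CYR61, had 2024 and 1871 reads in siCtrl, 1766 and 1494 in siSFPQ-2, and 2259 and 2073 in siSFPQ-3. The siSFPQ-2 libraries lay below siCtrl and the siSFPQ-3 libraries above it, so that the log2 fold change over both siRNAs was -0.05 (SE 0.10, limma adjusted p = 0.688).

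CCN2 (chr6:131948176-131951372), the related connective tissue growth factor, had 687 and 638 reads in siCtrl, 827 and 445 in siSFPQ-2, and 1148 and 833 in siSFPQ-3. Its siSFPQ-2 libraries fell on either side of siCtrl, and the spread between replicates was the widest of the 10 genes. The log2 fold change was 0.22 (SE 0.21, limma adjusted p = 0.414). Without siSFPQ-2 replicate 2, the library with 445 reads, it was 0.44 and passed (adjusted p = 0.0245).

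CCN1 and CCN2 are also the shortest of the genes. Their annotated spans are 3.19 and 3.20 kb, while the 8 genes that rose span from 20.1 kb (AMOTL2) to 270.3 kb (TEAD1). Over all tested features with a RefSeq span, the share called higher was 13.4% of the 2885 shorter than 5 kb, 35.3% of the 9031 of at least 20 kb and 49.8% of the 2598 of at least 100 kb. The median log2 fold changes of these classes were -0.18, 0.12 and 0.30. These length classes were chosen after the values were seen, and the part of gene length in the members' changes was not tested.

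Taken per kb of annotated span, the siCtrl levels covered a 181-fold range. CCN1 was highest with 611 normalized reads per kb, followed by CCN2 with 207 and AMOTL2 with 99.4. YAP1 (25.1), LATS2 (19.4), WWTR1 (16.1), CRIM1 (14.6), PTPN14 (11.7) and TEAD1 (10.7) formed a middle group, and AMOTL1 was lowest with 3.37. The siCtrl libraries of no neighbouring pair in this order overlapped, although with 2 libraries a group that is a description. The sources used here do not say which part of a gene was counted, and short genes with a strong signal at the start stand high on this scale.

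Each siRNA was also set against siCtrl on its own. These comparisons share the siCtrl libraries, so one is no independent repeat of the other. With siSFPQ-2, 7 of the 10 genes rose, where 21.2% of all features were called higher and 17.9% lower by limma. With siSFPQ-3, 8 rose, where 23.0% were called higher and 20.4% lower. No member was called lower with either siRNA by limma, edgeR or DESeq2, and none was lower at an unadjusted p under 0.05. AMOTL2 made the difference between the counts, since its log2 value was 0.28 (SE 0.11, adjusted p = 0.0636) for siSFPQ-2 and 0.57 (SE 0.11, adjusted p = 0.00184) for siSFPQ-3.

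The siRNAs gave nearly the same log2 fold change for PTPN14 (0.98 and 0.99), YAP1 (0.69 and 0.77) and LATS2 (0.41 and 0.50), naming siSFPQ-2 first. The value was larger for siSFPQ-3 for CRIM1 (1.16 and 1.54), AMOTL1 (0.98 and 1.30), WWTR1 (1.02 and 1.16) and TEAD1 (0.43 and 0.72). CCN1 (-0.26 and 0.15) and CCN2 (-0.13 and 0.56) had opposite signs, and none of these 4 values passed. In the siSFPQ-2 comparison the calls of TEAD1 (main adjusted p = 0.0115) and LATS2 (0.0116) were lost without siCtrl replicate 1 (0.0509 and 0.0535) and without siCtrl replicate 2 (0.0846 and 0.0923). The TEAD1 call was also lost without siSFPQ-2 replicate 1 (0.0586) or replicate 2 (0.0638), and the LATS2 call without siSFPQ-2 replicate 2 (0.106). CCN2 passed as lower without siSFPQ-2 replicate 1 (-0.57, adjusted p = 0.0304) and, in the siSFPQ-3 comparison, as higher without siSFPQ-3 replicate 2 (0.79, adjusted p = 0.0291). The CCN2 value for siSFPQ-3, 0.56 with an adjusted p of 0.083, also passed when the spread was taken from siSFPQ-3 and siCtrl alone (adjusted p = 0.00991) or without either siSFPQ-2 library (0.0103 and 0.0100).

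**Figure D2:**
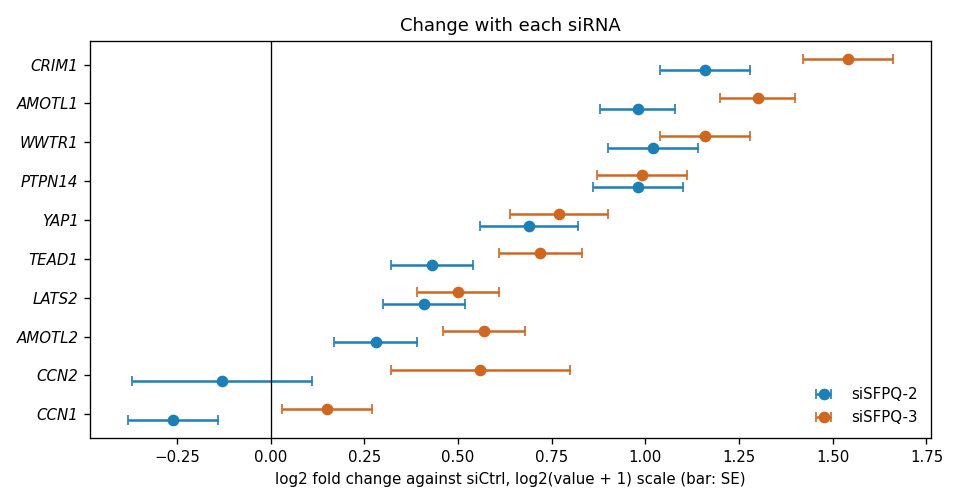
Log2 fold change against siCtrl for each of the 10 genes (x axis, log2(value + 1) scale), with siSFPQ-2 in blue and siSFPQ-3 in orange and bars for the SE from limma. The 8 genes from AMOTL2 upward lie to the right of 0 with both siRNAs, and CCN1 and CCN2 lie on opposite sides of 0.

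The difference between the siRNAs was tested directly. No member passed in the comparison of siSFPQ-3 with siSFPQ-2 by limma, edgeR or DESeq2, where limma called 0.0781% of features higher and 0.0230% lower. At an unadjusted p under 0.05, siSFPQ-3 gave higher values for 6 members by limma and by edgeR and 5 by DESeq2, and none was lower. The share of all features at an unadjusted p was not determined, so these counts cannot be set against the shares above. The median log2 difference of the 10 genes was 0.29, beside 0.00 over all features. The largest values were those of CCN2 (0.69, SE 0.24, adjusted p = 0.277) and CCN1 (0.41, SE 0.12, adjusted p = 0.191), and the smallest was that of PTPN14 (0.01, SE 0.12, adjusted p = 0.988). Without siSFPQ-2 replicate 1 the difference for CCN2 was 1.13 and passed (adjusted p = 0.0168).

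The deposited profiles give the signal of each gene in 500 bins. The sources used here do not say what the bins cover. The mean profile of every library was highest in the 1st bin after the first 100, so the gene was taken as the 300 bins that follow those 100, with 100 bins after it, and the gene's end in particular is an assumption. The first 30 of these bins, called the start window, hold the signal of the first part of the gene. If the bins divide each gene evenly, this window grows with the gene's span. In the long genes it then also holds polymerases that have left the start. The other 270, called the gene body, hold the polymerases that elongate through the gene. Tests on the profiles covered 14850 features with limma on log2 values.

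**Figure D3:**
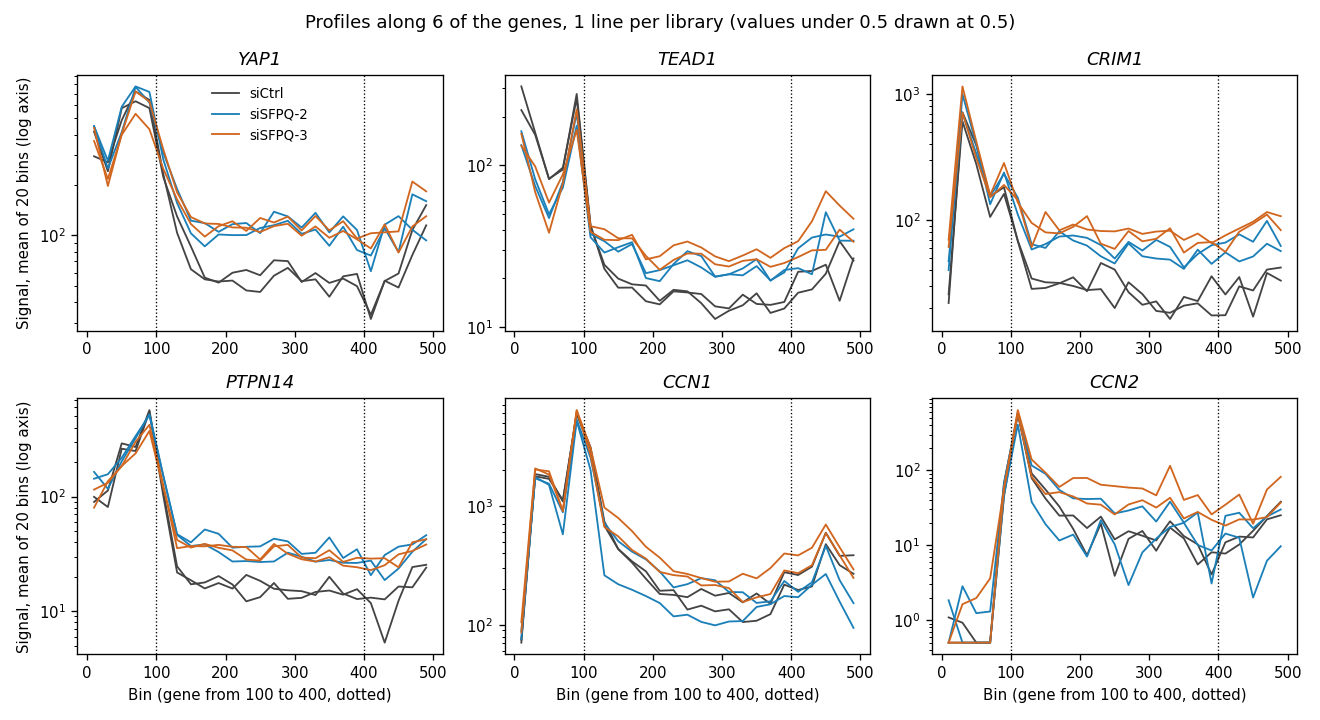
Profile signal along YAP1, TEAD1, CRIM1, PTPN14, CCN1 and CCN2 (y axis, log scale, mean of 20 bins) against the bin number, with 1 line per library in grey (siCtrl), blue (siSFPQ-2) or orange (siSFPQ-3) and dotted lines at the assumed start and end of the gene. Along most of the gene the 4 siSFPQ lines of YAP1, TEAD1, CRIM1 and PTPN14 run above both siCtrl lines. Near the start the lines come together for YAP1 and PTPN14, and those of TEAD1 cross, with a lower siSFPQ signal before the gene. The lines of CCN1 and CCN2 also cross.

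In the gene body the signal of the same 8 genes was higher with SFPQ knocked down, where 30.5% of features were called higher and 16.7% lower. YAP1 had a mean signal of 62.0 and 55.1 in siCtrl, 104 and 121 in siSFPQ-2, and 116 and 112 in siSFPQ-3. The siSFPQ libraries formed a tight group far above siCtrl, with a log2 difference of 0.91 (SE 0.10, limma adjusted p = 0.00139). CRIM1 had 25.4 and 29.1 in siCtrl, 56.2 and 62.3 in siSFPQ-2, and 81.9 and 75.8 in siSFPQ-3, a log2 difference of 1.23 (SE 0.10, limma adjusted p = 5.05e-04). The other differences were 1.02 for AMOTL1, 0.91 for PTPN14, 0.72 for AMOTL2, 0.66 for TEAD1 and 0.51 for LATS2, and the median over all features was 0.08. CCN1 (0.21, SE 0.26, adjusted p = 0.531) and CCN2 (0.74, SE 0.39, adjusted p = 0.161) did not pass, although CCN2 did without siSFPQ-2 replicate 2 (1.07, adjusted p = 0.0275).

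WWTR1 stood apart. Its signal in the gene body was 267 and 261 in siCtrl, 335 and 326 in siSFPQ-2, and 293 and 334 in siSFPQ-3. The groups did not overlap, but the log2 difference of 0.28 (SE 0.09, limma adjusted p = 0.043) was far smaller than its 1.09 in the expression table. The call was lost without either siCtrl library, without either siSFPQ-2 library and without siSFPQ-3 replicate 2, with a smaller pseudocount (0.28, adjusted p = 0.0766), and with median-of-ratios scaling (0.16, adjusted p = 0.233). The sources used here do not say whether the table and the profiles used the same transcript for this gene.

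In the start window, 3 of the 10 genes were higher, where 13.6% of features were called higher and 23.0% lower. These were CRIM1 (log2 difference 0.99, SE 0.14, limma adjusted p = 0.0035), AMOTL1 (0.74, SE 0.13, adjusted p = 0.00672) and PTPN14 (0.41, SE 0.11, adjusted p = 0.028). Without siCtrl replicate 2 only CRIM1 was called, and the PTPN14 call was also lost without siCtrl replicate 1 (adjusted p = 0.168) or either siSFPQ-2 library (0.0652 in both cases). YAP1 had a start-window signal of 201 and 199 in siCtrl and of 250, 275, 229 and 286 in the siSFPQ libraries, which did not overlap but did not pass (0.37, SE 0.13, adjusted p = 0.0678). It passed with median-of-ratios scaling (0.49, adjusted p = 0.0213), without siSFPQ-3 replicate 1 (0.45, adjusted p = 0.034) and among features of higher counts (0.37, adjusted p = 0.0485). TEAD1 had 37.8 and 37.5 in siCtrl and 36.7, 38.6, 41.4 and 44.8 in the siSFPQ libraries, which overlapped (0.09, SE 0.11, adjusted p = 0.549). The median over all features was -0.13.

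**Figure D4:**
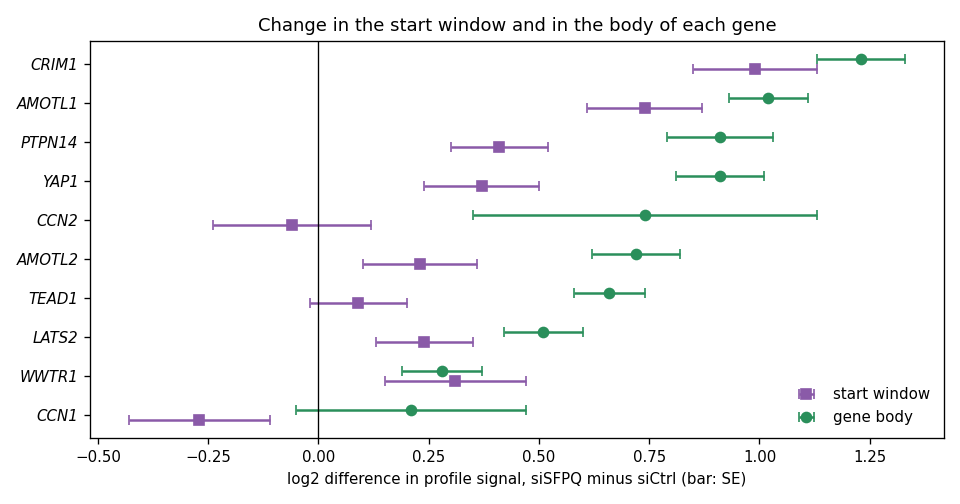
Log2 difference in profile signal, siSFPQ minus siCtrl (x axis, bars for the SE from limma), in the start window (purple squares) and in the gene body (green circles). The green circle lies to the right of the purple square for 9 of the 10 genes, and for WWTR1 the values, 0.31 and 0.28, nearly coincide.

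The ratio of the start window to the gene body was tested too. Because the window is a fixed share of the bins, the ratio is no measure of pausing at the start in the long genes. It was lower for 5 of the 10 genes, where 20.3% of features were called lower and 3.43% higher. For TEAD1 it was 2.48 and 2.44 in siCtrl, 1.51 and 1.62 in siSFPQ-2, and 1.39 and 1.64 in siSFPQ-3, with no overlap and a log2 difference of -0.57 (SE 0.13, limma adjusted p = 0.0186). For YAP1 it was 3.25 and 3.61 in siCtrl, against 1.97 to 2.56 in the siSFPQ libraries (-0.55, SE 0.15, adjusted p = 0.0311). For CCN2 it was 20.7 and 24.3 in siCtrl, 11.7 and 21.8 in siSFPQ-2, and 7.36 and 11.6 in siSFPQ-3. The groups of CCN2 thus overlapped, and its log2 difference was -0.80 (SE 0.23, adjusted p = 0.0384).

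PTPN14 (-0.50, SE 0.15, adjusted p = 0.0433) and AMOTL2 (-0.49, SE 0.13, adjusted p = 0.0271) were the other genes with a lower ratio by limma. CCN1 had a similar value that did not pass (-0.48, SE 0.16, adjusted p = 0.0631). It passed among features with a mean of at least 500 normalized reads (-0.48, adjusted p = 0.0299) and without siSFPQ-2 replicate 2 (-0.59, adjusted p = 0.0487). The median over all features was -0.21. These calls rest on few libraries: the count of 5 became 0 without siCtrl replicate 1 or without siCtrl replicate 2, 2 without siSFPQ-2 replicate 1 or siSFPQ-3 replicate 1, and 3 without siSFPQ-2 replicate 2.

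No member passed for the ratio of the last 90 bins of the gene body to its first 90 bins, where limma called 2.94% of features higher and 2.86% lower, and the unadjusted p was under 0.05 for 2 members, both higher. The largest values were 0.61 (SE 0.32) for CCN2 and 0.42 (SE 0.12) for WWTR1, with limma adjusted p of 0.282 and 0.0932. AMOTL2 had 0.36 (SE 0.13, adjusted p = 0.156). Along the other long genes the ratio moved little, from -0.11 for PTPN14 to 0.14 for LATS2. For the signal after the gene over these last 90 bins, limma also called no member, 0.00% of features higher and 0.0135% lower. At an unadjusted p under 0.05, 3 members were lower. For both ratios the shares of features are at the adjusted p, and the share at an unadjusted p was not determined.

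The signal before the gene separated the members further. In siCtrl it averaged 2137 at CCN1 (SD 42.1, n = 2) and 1043 at AMOTL2, but 11.5 at CCN2, 10.1 at AMOTL1 and 4.65 at LATS2. At TEAD1 it was 166 and 181 in siCtrl, and 109, 109, 109 and 113 in the siSFPQ libraries, so that all 4 lay below both siCtrl libraries while the gene itself rose. At YAP1 it was 488 and 485 in siCtrl and from 389 to 561 in the siSFPQ libraries, which overlapped. These window values were not tested, and the sources used here do not say which strand the profiles hold.

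The rest of the pathway was described from lists, some of which also hold some of the 10 genes. Each count below stands beside 24.8% of all tested features called higher and 23.2% called lower by limma. Of features with a span of at least 20 kb, 35.3% were called higher, and of those of at least 100 kb, 49.8%. Of the Hippo kinase core, 6 of 7 genes rose and none fell, with a median log2 fold change of 0.45, beside -0.02 over all features. The core holds 1 of the 10 genes, LATS2, and of its 6 others, 5 rose. The scaffold SAV1 had 715 and 702 reads in siCtrl, 1108 and 1166 in siSFPQ-2, and 1291 and 1382 in siSFPQ-3 (log2 fold change 0.80, SE 0.09, limma adjusted p = 5.78e-05). The kinase STK3 had 2298 and 1997 reads in siCtrl and from 3386 to 4016 in the siSFPQ libraries (0.78, SE 0.10, adjusted p = 1.45e-04). Both genes lay higher in every siSFPQ library than in either siCtrl library. MOB1A, an adaptor that activates the LATS kinases, was the gene of the core that did not pass (-0.01, limma adjusted p = 0.926). The count for the core was 4 without siCtrl replicate 2.

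Of the upstream regulators, 11 of 19 tested rose and 1 fell, with a median of 0.41. The examples are STRN3, a striatin of the phosphatase complex that opposes the kinases (0.89, SE 0.10, limma adjusted p = 4.36e-05), and WWC1, also called KIBRA, an activator of the kinases (0.76, SE 0.10, adjusted p = 1.14e-04). WTIP, a LIM protein that binds LATS kinases, fell from 1435 and 1488 reads to between 1132 and 1322 (-0.27, SE 0.09, adjusted p = 0.0277). Among the 7 that did not pass were AMOT, the founding angiomotin (0.41, adjusted p = 0.251), and FAT4, an atypical cadherin (-0.46, adjusted p = 0.0885). The WTIP call was lost without siCtrl replicate 1 (adjusted p = 0.11), siCtrl replicate 2 (0.179), siSFPQ-2 replicate 2 (0.0664) or siSFPQ-3 replicate 2 (0.0563) and with DESeq2 (0.0526). Without siSFPQ-2 replicate 1 or siSFPQ-3 replicate 1, 3 of the regulators were called lower.

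Of the TEAD and VGLL factors, 4 of 5 tested rose, with a median of 0.57. TEAD1 is 1 of these 5, and of the 4 others, 3 rose. TEAD4 had 1281 and 1215 reads in siCtrl and from 1769 to 2153 in the siSFPQ libraries (0.62, SE 0.10, limma adjusted p = 6.25e-04). VGLL4, a cofactor that competes with YAP for TEAD, had 1175 and 990 in siCtrl and from 1524 to 1863 in the siSFPQ libraries (0.64, SE 0.10, adjusted p = 5.14e-04). TEAD3 passed narrowly (0.27, adjusted p = 0.0455), and TEAD2 did not pass (-0.05, adjusted p = 0.733). Without any one of the 6 libraries 3 of the 5 were called.

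Of the wider YAP and TAZ target list, 13 of 21 tested genes rose and 2 fell, with a median of 0.39. The list holds 6 of the 10 genes, and of its 15 others, 9 rose and 2 fell. DOCK5, a guanine nucleotide exchange factor for RAC, had 708 and 635 reads in siCtrl, 1273 and 1246 in siSFPQ-2, and 1589 and 1612 in siSFPQ-3 (1.08, SE 0.09, limma adjusted p = 7.94e-06). ANKRD1, a muscle ankyrin repeat protein widely used as a YAP readout, was close to the detection limit in siCtrl with 1.59 and 3.32 reads. It had 24.1 and 16.6 in siSFPQ-2 and 53.8 and 70.9 in siSFPQ-3, and passed (3.44, SE 0.35, adjusted p = 3.18e-05). The siCtrl values rest on 2 and 3 recovered reads, so the size of this fold change depends on the pseudocount.

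In the other direction, CCDC80, an extracellular matrix protein, fell from 1532 and 1479 reads in siCtrl to between 593 and 941 in the siSFPQ libraries (-1.02, SE 0.16, limma adjusted p = 4.79e-04). RBMS3, an RNA-binding protein gene, fell from 5318 and 5007 to between 2388 and 3848 (-0.78, SE 0.17, adjusted p = 0.00399), and its call was lost without siCtrl replicate 1 (adjusted p = 0.0538). Fewer targets were called higher without siCtrl replicate 2, which moved this count by more than any other library. The share of all features called higher in that fit is not given here, so the fall cannot be called particular to the targets. The median of the targets was 0.38 without siCtrl replicate 2 and 0.44 without siCtrl replicate 1.

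**Figure D5:**
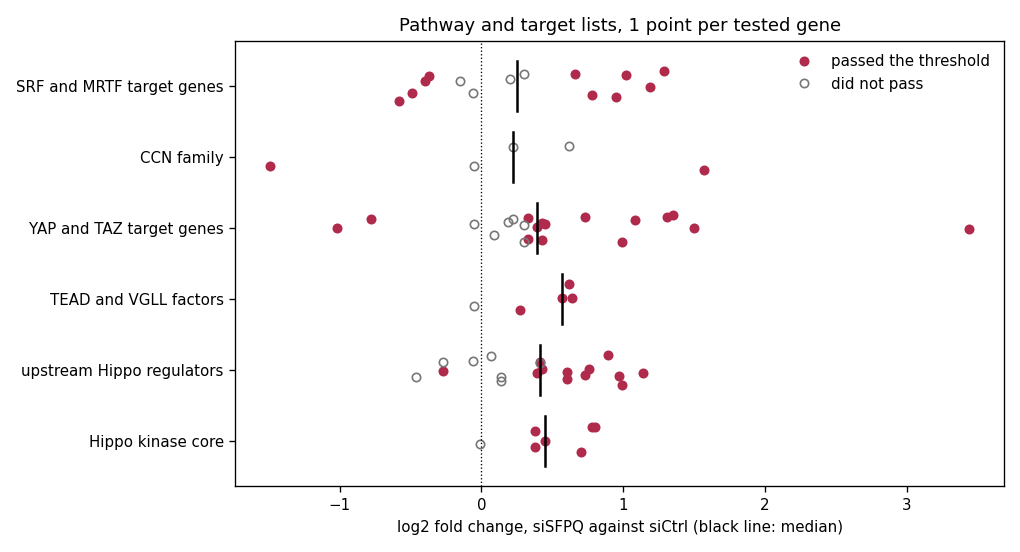
Log2 fold change, siSFPQ against siCtrl (x axis, log2(value + 1) scale), of each tested gene of 6 lists. Filled red points passed the limma threshold, open grey points did not, and the black line is the median of the list. The medians lie between 0.22 (CCN family) and 0.57 (TEAD and VGLL factors), and ANKRD1 at 3.44 is the point farthest to the right. The CCN family median rests on 5 genes and ran from 0.00 to 0.44 when 1 library was left out.

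The CCN family as a whole did not move one way: CCN4 rose from 14.3 and 6.65 reads to between 27.3 and 36.5 (1.57, SE 0.33, limma adjusted p = 0.00288), and CCN3 fell from 66.1 and 76.4 to between 19.2 and 33.2 (-1.49, SE 0.28, adjusted p = 0.0015). The other 3 of the 5 tested, among them CCN1 and CCN2, did not pass. Without siSFPQ-2 replicate 2, 2 of the 5 were called higher, CCN2 being added. The median of the 5, 0.22, was 0.00 without siSFPQ-2 replicate 1, 0.10 without siSFPQ-3 replicate 1, 0.44 without siSFPQ-2 replicate 2 and 0.33 without siSFPQ-3 replicate 2. It was -0.05 over the 3 genes left by a filter at 50 normalized reads. Both CCN3 and CCN4 were transcribed at far fewer reads than CCN1.

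CCN1 and CCN2 are also known targets of SRF and its MRTF coactivators, which respond to actin. Of 14 tested SRF and MRTF targets, 6 rose and 4 fell, with a median of 0.25. Over all tested features, 24.8% were called higher and 23.2% lower. CALD1, an actin-binding caldesmon (1.29, SE 0.09, limma adjusted p = 2.04e-06), and VCL, the focal adhesion protein vinculin (1.02, SE 0.11, adjusted p = 3.72e-05), rose. SRF itself fell from 848 and 843 reads to between 568 and 652 (-0.49, SE 0.10, adjusted p = 0.00215), as did MYL9, a myosin light chain (-0.58, SE 0.12, adjusted p = 0.00296). The MYL9 call was lost without siCtrl replicate 1 (adjusted p = 0.0574), and without that library 2 of the list fell.

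Markers of other cell types were checked because several of the genes are strong in fibroblasts and endothelium. Of the fibroblast list 3 of 10 genes were in the table, and their summed normalized reads were 334 and 316 in siCtrl, 621 and 639 in siSFPQ-2, and 508 and 635 in siSFPQ-3. COL1A1 rose (1.16, SE 0.16, limma adjusted p = 1.86e-04) and the other 2 did not pass. Of the endothelial list only TEK was in the table (1 of 8), with 38.3 and 48.7 reads in siCtrl and from 88.2 to 145 in the siSFPQ libraries (1.30, SE 0.23, adjusted p = 0.00113). Of 8 immune markers only 2 were in the table. CD79A, with 6.38 and 19.9 reads in siCtrl, rose (1.38, limma adjusted p = 0.0177) and CD68 fell (-0.49, adjusted p = 0.0119). The CD79A call was lost without siCtrl replicate 1 (adjusted p = 0.243) and the CD68 call without siCtrl replicate 1 (0.0959) or 2 (0.0877).

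Of the neuroendocrine markers, 1 of 5 tested fell, DLL3, an inhibitory Notch ligand (-0.83, SE 0.21, limma adjusted p = 0.0073), and its call was lost without siCtrl replicate 1 (adjusted p = 0.0557) or 2 (0.0744). Without siSFPQ-2 replicate 1, 3 of the 5 were called lower, and with a pseudocount of 5, 2 were. With siSFPQ-2 alone, SYP was called higher (0.56, SE 0.17, limma adjusted p = 0.0261) and DLL3 lower (-0.78, SE 0.24, adjusted p = 0.0252). For siSFPQ-3 alone, DLL3 (-0.88, SE 0.24, adjusted p = 0.0127) and NEUROD1 (-1.15, SE 0.42, adjusted p = 0.0445) were called lower and none higher. NEUROD1 had few reads, 12.9 and 12.2 in siSFPQ-3. The list median over both siRNAs was -0.67, beside -0.02 over all features. Of all features, limma called 21.2% higher and 17.9% lower with siSFPQ-2, and 20.4% lower with siSFPQ-3. With both siRNAs against siCtrl, limma called 23.2% of all tested features lower. The part of these marker changes in the results was not tested.

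The features most like 3 of the genes were found by the root mean square difference of their centred log2 values over the 6 libraries, among features at or above the median level. Nearest to YAP1 were MARCHF5 (0.030), AC093884.1 (0.032) and ZRANB1 (0.034). Nearest to CCN1 were NUP205 (0.021), LRRC20 (0.046) and DANT2 (0.051), and nearest to CCN2 were C5 (0.105), LIMCH1 (0.149) and ZNF736 (0.170). NUP205 ran almost in parallel with CCN1, with 1105 and 1013 reads in siCtrl, 953 and 823 in siSFPQ-2, and 1198 and 1095 in siSFPQ-3. No feature followed CCN2 as closely.

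The authors' deposited table gives log2 fold changes of the same direction for these genes. In the authors' deposited table the log2 fold change is 0.73 for YAP1, 1.09 for WWTR1, 1.36 for CRIM1, -0.04 for CCN1 and 0.30 for CCN2. The submitters sorted the profile files into classes, and YAP1, WWTR1, AMOTL1, CRIM1 and PTPN14 are in the class named up, while TEAD1, AMOTL2, CCN1, CCN2 and LATS2 are in the class named ns. The class ns does not mean that the authors' adjusted p was high: the authors' deposited table gives 8.46e-05 for TEAD1, 0.0062 for AMOTL2 and 5.63e-04 for LATS2. The limma log2 fold changes of these 3 genes, 0.57, 0.43 and 0.45, were the smallest among the 8 genes that rose.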

How the data were processed

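PRO-seq libraries of SBC-3 cells were analysed from a table of normalized reads per feature and from profiles of 500 bins per gene. The submitters' processing notes name, with no role or order, the builds hg38 and dm6 and the tools DESeq2 1.38.1, SAMtools 1.3.1, Bowtie2, cutadapt 1.14 and UMI-tools. The deposited normalized signal is a count divided by a factor per library: whole reads were recovered for 100% of values within 0.1 read, and 1 read was worth 0.797 to 1.108. The authors' deposited table also gives log2 fold changes and adjusted p-values. The sources used here do not give the scaling of the deposited profile signal, and the ratio of table to profile values differed 1.1-fold between libraries.

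Of 26067 lines, 240 repeats were removed. The features tested had 10 or more normalized reads in at least 2 libraries. They were tested with limma 3.58.1 (R 4.3.3) on log2(value + 1) over all 3 groups, with Benjamini-Hochberg adjustment and a threshold of 0.05. edgeR 4.0.16 and DESeq2 1.42.0 were run on the recovered reads as alternatives. Profile tests used limma on features with a mean of at least 100 normalized reads and a pseudocount of 3.363, and those on the signal of the start window and of the gene body alone were added after the profiles were seen. On simulated data, limma recovered 96% of 100 features changed by a log2 value of 1 and 100% of 100 changed by 2 among 21083 in the main comparison. The changed features were drawn from those with a mean of at least 100 recovered reads in siCtrl. Features of fewer reads and smaller changes were thus not covered. For the ratio of the start window to the gene body, limma recovered 65% of 200 changed by 1 among 14850. Other alternatives were pseudocounts, filters, scalings, a replicate block and leaving out each library. Gene spans and promoters came from RefSeq, and spans matched 18746 features by symbol.

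The 10 genes, the lists and the comparisons were chosen with earlier results of these data known. All 10 genes are described in every library. Of each list, up to 2 other genes per direction with the smallest p past the threshold were named, and TEAD2, TEAD3, MOB1A, AMOT, FAT4, ENO2, CHGA, NEUROD1 and SYP were named after their values were seen. For YAP1, CCN1 and CCN2 the 3 most alike features were named.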

Additional observations from a re-analysis of the deposited data

How the results depend on the processing

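With both siRNAs against siCtrl, 148 of 150 values of the 10 genes under the alternatives kept their side of the threshold. The exceptions were AMOTL2 without siCtrl replicate 2 and CCN2 without siSFPQ-2 replicate 2. The genes that rose also kept their direction. A change of sign was not counted for CCN1 and CCN2, which missed the threshold in the main fit. Leaving out 1 library at a time gave 8 to 14 YAP and TAZ targets higher and 1 to 2 lower, and 2463 to 5205 features lower in all, against 5044 with every library. The values without siCtrl replicate 1 (2463) and replicate 2 (2529) were the lowest of the latter, with fewer control libraries in the fit. Leaving out 1 library gave 0 to 1 members lower with siSFPQ-2, 0 to 1 higher with siSFPQ-3 than with siSFPQ-2, 0 to 4 with a lower ratio of the start window to the gene body, and 1 to 4 higher in the start window. A pseudocount 10 times larger left 2 members with a lower ratio of the start window to the gene body, and the cause was not tested.

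The replicate numbers were shared between groups, but the labels do not say what they mark, and replicate differences correlated at 0.144 to 0.556 between groups. With the number as a replicate block, 8 members were higher over both siRNAs, 8 were higher (AMOTL2 added, adjusted p = 0.0333 by limma) and 1 was lower (CCN1, 0.0363) with siSFPQ-2, 9 were higher with siSFPQ-3 (CCN2 added, 0.00389), and 2 members were higher with siSFPQ-3 than with siSFPQ-2 (CCN1, 0.0281, and CCN2, 0.0151). The block also left 2 neuroendocrine markers lower. The shares of all features called with the block are not given here, so these counts cannot be set against the shares above.

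With 2 libraries a group, a p that misses the threshold does not show that values were alike.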
